A study of Saccharomyces cerevisiae with 16 samples.

Results

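The genes described here encode the proteasome, the protease complex that degrades ubiquitin-tagged proteins, together with RPN4, the transcription factor gene that drives their expression in budding yeast. The set was chosen by gene name and not by a cutoff on expression values, but with earlier results of these data known, and held 33 of the 6717 identifiers in the count table. The 14 genes of the 20S core were SCL1, PRE8, PRE9, PRE6, PUP2, PRE5 and PRE10, which encode the alpha subunits 1 to 7 in that order, and PRE3, PUP1, PUP3, PRE1, PRE2, PRE7 and PRE4, which encode the beta subunits 1 to 7. The 10 genes of the 19S base were the ATPase genes RPT1 to RPT6 with RPN1, RPN2, RPN10 and RPN13, and the 8 of the 19S lid were RPN3, RPN5, RPN6, RPN7, RPN8, RPN9, RPN11 and RPN12. All 33 passed the filter on low counts that left 5856 genes for testing, and the lowest count of any member in any library was 125, for RPN8.

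RNA-seq was performed on haploid MATa S96 yeast (lys5, S288c background) and on a petite derivative of it. The petite yeast were made with ethidium bromide, which removes the mitochondrial genome, and whether they came from 1 clone is not given in the sources used here. Grande here means the respiring parent, which the labels call normal. Both strains were grown in YM, a minimal medium supplemented with lysine, or in YPD, a rich medium. Cultures were split into a part with 0.055% (v:v) MCHM, or 4-methylcyclohexanemethanol, a coal-cleaning alcohol, and a part without it, and both were grown for a further 2.5 h by the labels (the study's text gives a shorter exposure). This gave 8 groups of 2 libraries: petite YM with MCHM, petite YM untreated, grande YM with MCHM, grande YM untreated, and the same 4 in YPD. Replicates 1 and 2 are named here for the lower and higher culture number in the table, so an MCHM library and the untreated library of the same replicate came from 1 culture.

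Libraries held 2015485 to 5694566 counts, with a median of 3662481. The 28 identifiers of the mitochondrial genome had 0 counts in all 8 petite libraries and 0 to 12 counts in the grande libraries, so their absence checks the petite label only weakly. MATa-specific genes were present in every library. Their summed level in YM was 433 and 411 CPM (counts scaled by edgeR to a library of fixed size) in petite yeast with MCHM and 527 and 1063 CPM in untreated petite yeast, against 1253 and 3008 CPM in grande yeast with MCHM and 2749 and 4143 CPM in untreated grande yeast. One untreated library stood apart: in petite YPD replicate 2 the drug pump gene PDR5 was at 8042 CPM. PDR5 was at 3043 CPM in untreated petite YPD replicate 1 and at 627 to 1210 CPM in the untreated libraries of the other groups. It was at 10656 to 16331 CPM in the 8 MCHM libraries. Both untreated petite YPD libraries were thus above the other untreated ones, replicate 2 more so. The values without untreated petite YPD replicate 2 stand beside the results that use it, or in 1 sentence where several differences use it.

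The 26S proteasome consists of the 20S core, a barrel of alpha and beta rings with the proteolytic sites inside, and the 19S regulatory particle. The base of the 19S particle carries a ring of ATPases that unfold substrates and thread them into the core, and the lid carries the deubiquitinating enzyme. Rpn4 binds a proteasome-associated control element (PACE) upstream of the subunit genes and is itself a short-lived substrate of the proteasome, and the transcription factors Pdr1, Pdr3, Yap1 and Hsf1 are known to activate RPN4.

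The element was searched in the genomic window from 250 bases before to 50 bases after each start codon of the R64 reference genome, on both strands. PACE, spelled GGTGGCAAA, was in the windows of 27 of the 32 subunit genes (84.4%), against 72 of 6007 windows of all nuclear coding genes (1.20%). The subunit genes are counted among the 6007 windows, and the excess was not tested. Its last 8 letters, GTGGCAAA, were in 30 of the 32 (93.8%), against 144 of the 6007 (2.40%). Each of the 27 genes had 1 full match, starting 84 to 183 bases before the start codon with a median of 120, on the strand of the gene in 19 and on the other strand in 8. PRE5, PUP1 and RPN8 had the shorter form alone, and RPN10 and RPN13, which encode ubiquitin receptors, had neither. The stretches below are those of subunit genes whose RNA level differed most in the comparisons that follow, of the catalytic subunit genes PRE3 and PUP1, and of RPN4. Each is given in the direction of its gene with 15 bases on either side of the match, or 8 for RPN4, and the match is in capitals.

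RPN5 (YDL147W, lid, chrIV:190771-190809, plus strand): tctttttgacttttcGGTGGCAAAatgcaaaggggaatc
RPT2 (YDL007W, base ATPase, chrIV:437901-437939, plus strand): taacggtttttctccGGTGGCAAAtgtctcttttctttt
PRE9 (YGR135W, core alpha3, chrVII:761218-761256, plus strand): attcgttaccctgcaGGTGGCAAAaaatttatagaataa
SCL1 (YGL011C, core alpha1, chrVII:475332-475370, minus strand): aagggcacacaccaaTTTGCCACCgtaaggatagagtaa
PRE3 (YJL001W, core beta1, chrX:435030-435068, plus strand): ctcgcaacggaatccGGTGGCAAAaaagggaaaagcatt
PUP1 (YOR157C, core beta2, chrXV:631886-631923, minus strand): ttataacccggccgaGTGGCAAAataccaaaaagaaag
RPN8 (YOR261C, lid, chrXV:817080-817117, minus strand): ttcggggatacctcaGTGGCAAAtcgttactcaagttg
RPN4 (YDL020C, activator, chrIV:416709-416737, minus strand): caaaagttTTCTAGAATTTTCaagcaatc

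In SCL1 the element lies on the other strand and so reads in reverse complement. The RPN4 window held no PACE and was the only window of the set with a match to a heat shock element, the type of site that Hsf1 binds. This was searched as 3 units GAA or TTC in alternating orientation with any 2 bases between them. The match started 21 bases before the RPN4 start codon, and 47 of the 6007 windows held one (0.782%). Binding was not measured, and sites more than 250 bases before a start codon were not searched. The Pdr1 and Pdr3 element TCCGCGGA was in the RPN11 window alone among the 33 genes (0.216% of all windows), where it started 42 bases after the first base of the start codon, inside the coding sequence, and the Yap1 element TTACTAA, or TTAGTAA on the other strand, was in the windows of PRE5, RPN7 and RPN8 (7.47% of all windows).

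**Figure D1:**
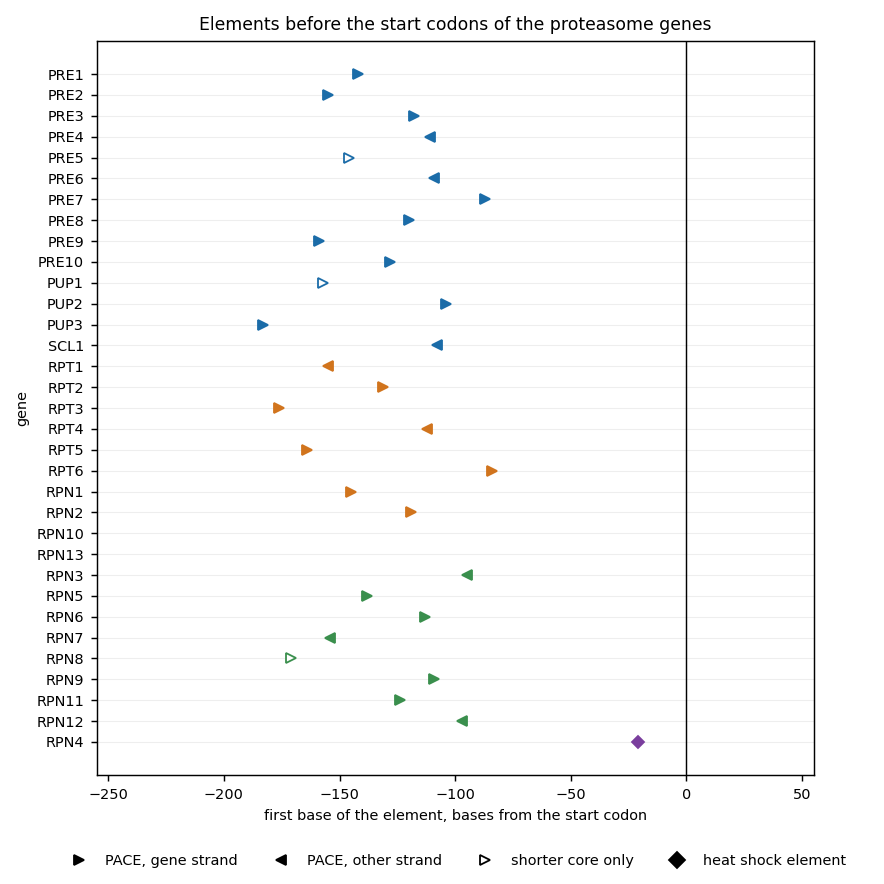
Position of the first base of each matched element for the 33 genes, in bases from the start codon (0 on the horizontal axis); the triangles give the strand, open triangles the shorter form, the diamond the heat shock element, and colours the 20S core (blue), 19S base (orange), 19S lid (green) and RPN4 (purple). The 27 full matches lie between 84 and 183 bases before the start.

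Levels between genes were compared as CPM per kilobase of coding sequence, averaged over the 16 libraries. The subunit genes lay within a 3.45-fold range, with a median of 160 CPM per kb. PRE3, which encodes the caspase-like catalytic subunit beta1 and has the only intron of the set, was highest at 318 ± 84.7 CPM per kb (SD over 16 libraries), and RPN1, a large scaffold subunit of the base, was lowest at 92.0 ± 14.3 CPM per kb. By block, the medians were 226 CPM per kb for the 20S core, 141 for the 19S base and 116 for the 19S lid, and the 12 highest genes were all of the core. The core genes were also short, with 597 to 867 bases of coding sequence, against 2838 for RPN2 and 2982 for RPN1. Of short 19S genes, RPN10 (807 bases) was at 193 CPM per kb and RPN13 (471 bases) at 154. Block and length were thus not separated, and whether length accounts for the block order was not tested. RPN4 was at 79.2 ± 50.5 CPM per kb and below every subunit gene, but its SD was the largest of the set relative to its mean. Counting was not described as stranded, but no member overlaps another gene annotated in the R64 genome. Overlap with the 692 counted identifiers that have no annotated position there could not be checked.

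**Figure D2:**
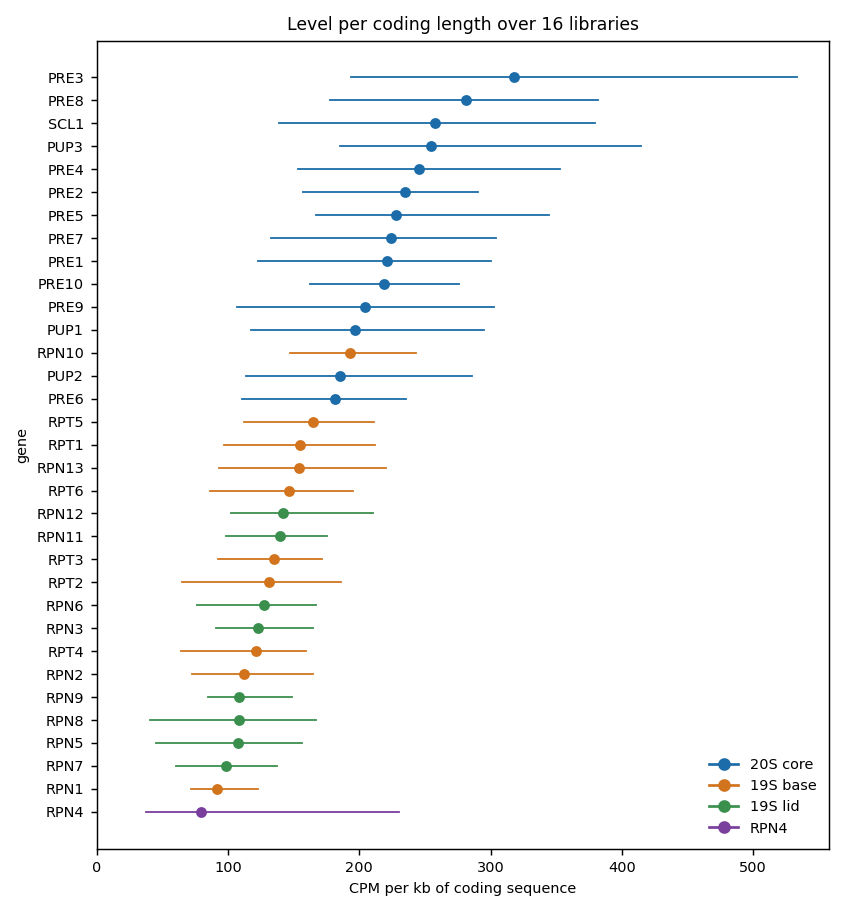
Mean level of each gene in CPM per kb of coding sequence (points) and its lowest and highest library (lines), over 16 libraries; colours give the 20S core, 19S base, 19S lid and RPN4. The 20S core genes occupy the upper part, from 182 to 318 CPM per kb, and RPN4, at 79.2 CPM per kb, is at the bottom with a range of 37.7 to 230 CPM per kb.

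The median level of the subunit genes lay between 153 and 228 CPM in 7 of the 8 groups and was lower in untreated grande yeast in YM. It was 165 and 153 CPM in petite YM with MCHM and 193 and 163 CPM in petite YM untreated. It was 228 and 159.7 CPM in grande YM with MCHM, against 125 and 109.9 CPM in grande YM untreated, which were the 2 lowest of the 16 libraries. In YPD it was 166 and 175 CPM in petite yeast with MCHM, 154 and 154 CPM in untreated petite yeast, 173 and 187 CPM in grande yeast with MCHM, and 172 and 164 CPM in untreated grande yeast. As a share of all counts, the 33 genes made up 0.680% and 0.496% in grande YM with MCHM, against 0.404% and 0.315% in untreated grande YM. In these bulk libraries, fewer cells with these RNAs and less of them per cell cannot be told apart.

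**Figure D3:**
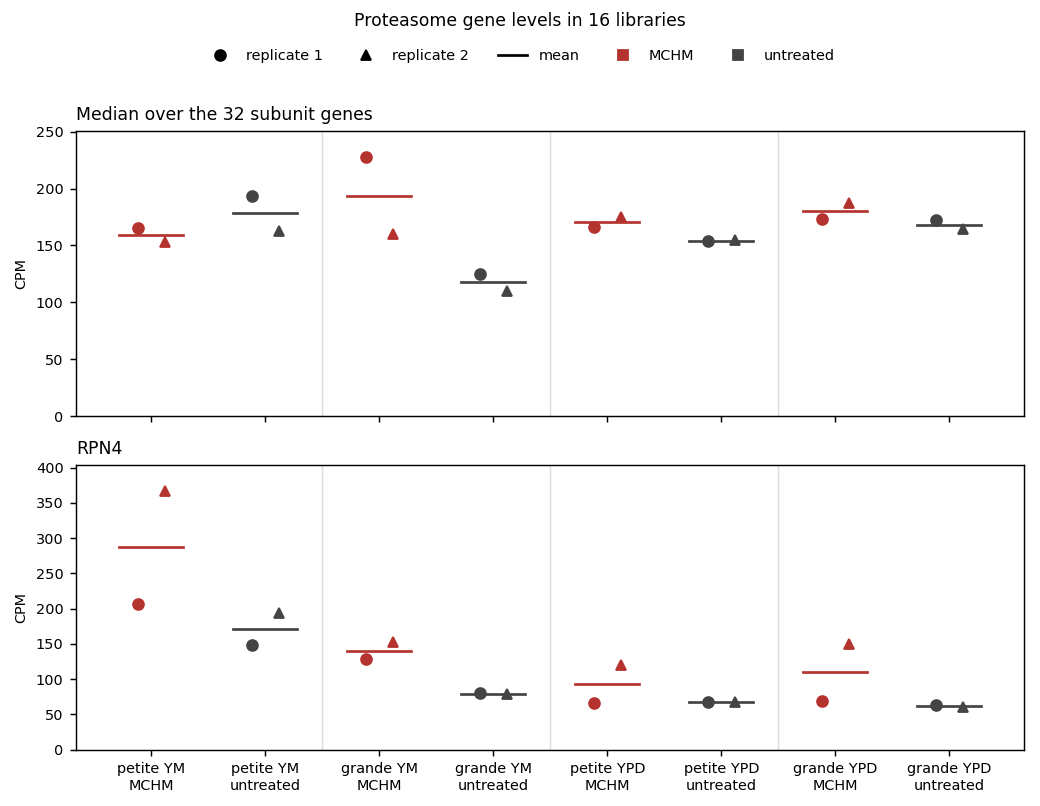
Median CPM over the 32 subunit genes (top) and CPM of RPN4 (bottom) in each library, by group; circles are replicate 1, triangles replicate 2 and bars their mean, with MCHM in red and untreated in grey. The untreated grande YM libraries are the lowest for the subunits, at 125 and 109.9 CPM, while RPN4 is highest in petite YM with MCHM, at 207 and 367 CPM.

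MCHM was compared with no treatment in each strain and medium. In grande yeast in YM, all 32 subunit genes had higher levels with MCHM, with a median log2 fold change of 0.73 (range 0.23 to 1.36), against a median of 0.00 over all 5856 genes tested. Of the 32, 7 passed an adjusted p of 0.05 in edgeR's quasi-likelihood test (7 higher, 0 lower), against 3.06% of all genes called higher. The MCHM and untreated libraries did not overlap for 31 of the 32, against 26.5% of all genes not overlapping and higher. Within each culture, the ratio of MCHM to untreated exceeded 1 for 32 of 32 subunit genes in replicate 1, with a median of 1.73, and for 32 of 32 in replicate 2, with a median of 1.54.

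RPN5, a scaffolding subunit of the lid, had 209 and 136 CPM with MCHM, against 74.1 and 60.0 CPM untreated, and had the largest change, with a log2 fold change of 1.36 ± 0.26 (SE, adjusted p = 0.0116). RPN8, the lid partner of the deubiquitinase Rpn11, had 149.7 and 107 CPM with MCHM, against 70.2 and 41.2 CPM untreated (log2 fold change 1.21 ± 0.31, adjusted p = 0.0425). In both genes the lower MCHM library stood above the higher untreated one. SCL1, which encodes alpha1, had 288 and 222 CPM with MCHM, against 145 and 105 CPM untreated (1.03 ± 0.23, adjusted p = 0.0231). PRE9 (alpha3, 1.01 ± 0.23), PRE1 (beta4, 0.92 ± 0.24), PUP2 (alpha5, 0.91 ± 0.22) and the base ATPase gene RPT2 (0.87 ± 0.22) were the other 4 called, with adjusted p between 0.0269 and 0.0464. By block, 4 of 14 core genes, 1 of 10 base genes and 2 of 8 lid genes passed, and the block medians were 0.75, 0.72 and 0.70.

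The 3 catalytic subunit genes differed in size of response in that comparison. PRE3 had 346 and 230.2 CPM with MCHM, against 175 and 126 CPM untreated (0.94 ± 0.25, adjusted p = 0.0512). PUP1, the trypsin-like beta2, had 232 and 179.7 CPM with MCHM, against 146 and 139 CPM untreated (0.53 ± 0.26, adjusted p = 0.257). PRE2, the chymotrypsin-like beta5, had 248 and 168 CPM with MCHM, against 219 and 135 CPM untreated, and was the subunit with the smallest value (0.23 ± 0.29, adjusted p = 0.686). PRE2 was also the 1 subunit whose libraries overlapped. The differences between these genes were not tested.

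The size of the increase was steadier than the number of calls. With the culture as a block, which uses the split of each culture, 12 of the 32 passed (9.15% of all genes). DESeq2 called 18 (10.4% of all genes), and a fit on the 4 compared libraries alone called 0 with a median of 0.74. Without MCHM replicate 1 or without untreated replicate 2 of grande YM, 0 passed, with medians of 0.43 and 0.60. Without untreated replicate 1 of grande YM, any 1 of the 4 petite YPD libraries, or an MCHM library of grande YPD or petite YM, 3 or 4 passed.

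In the other 3 comparisons 0 of the 32 subunit genes passed edgeR's test, where 0.546% of all genes were called in petite YM, 11.6% in petite YPD and 2.36% in grande YPD, in either direction. The count at an unadjusted p under 0.05 was 0 in petite YM, 1 in petite YPD (12.3% of all genes, higher) and 1 in grande YPD (8.25%), and DESeq2 called 0, 1 and 0 of them. The median log2 fold change was -0.12 in petite YM (range -0.47 to 0.08), 0.11 in petite YPD (-0.33 to 0.69) and 0.14 in grande YPD (-0.19 to 0.56). With the culture as a block, 1 subunit gene passed in petite YPD. Leaving out the untreated petite YPD library that stood apart gave a median of 0.13 in petite YPD and 0 calls. In petite YM, 27 of the 32 had a negative value, and 12 had MCHM libraries wholly below the untreated ones, against 23.5% of all genes. The median over all genes tested was also below 0 there, at -0.070, and 43.4% of them had a positive value. As a share of all counts, the 33 genes, RPN4 included, went from 0.660% to 0.541% with MCHM in replicate 1. In replicate 2 they went from 0.589% to 0.678%, so the direction in that culture rests on the scaling.

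PRE3 was the subunit gene at an unadjusted p under 0.05 in both YPD comparisons. It had 256 and 236 CPM in petite YPD with MCHM, against 156 and 148 CPM untreated (0.69 ± 0.25, adjusted p = 0.0988). In grande YPD it had 224 and 246 CPM with MCHM, against 173 and 146 CPM untreated (0.56 ± 0.25, adjusted p = 0.296). In petite YM it had 237 and 186 CPM with MCHM, against 223 and 190.1 CPM untreated (0.03 ± 0.25). PRE3 did not overlap between treated and untreated libraries in grande YM and in both YPD comparisons, and overlapped in petite YM. Of the 5856 genes tested, 1549 in grande YM, 1568 in petite YPD and 1283 in grande YPD likewise did not overlap and were higher.

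The other subunit genes with the largest values in these 3 comparisons are given next. PRE8 (alpha2) had 287 and 243 CPM in grande YPD with MCHM, against 209 and 183 CPM untreated (0.44 ± 0.26). RPN10, a ubiquitin receptor of the base, had 191 and 151 CPM in petite YPD with MCHM, against 119 and 141 CPM untreated (0.39 ± 0.23). In petite YM, PUP1 had 139.8 and 153 CPM with MCHM, against 181 and 226 CPM untreated (-0.47 ± 0.26), and PRE6 (alpha4) had 115 and 124 CPM with MCHM, against 157 and 158 CPM untreated (-0.40 ± 0.21). None of these 4 passed the adjusted test, and each value was under 2 times its SE.

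**Figure D4:**
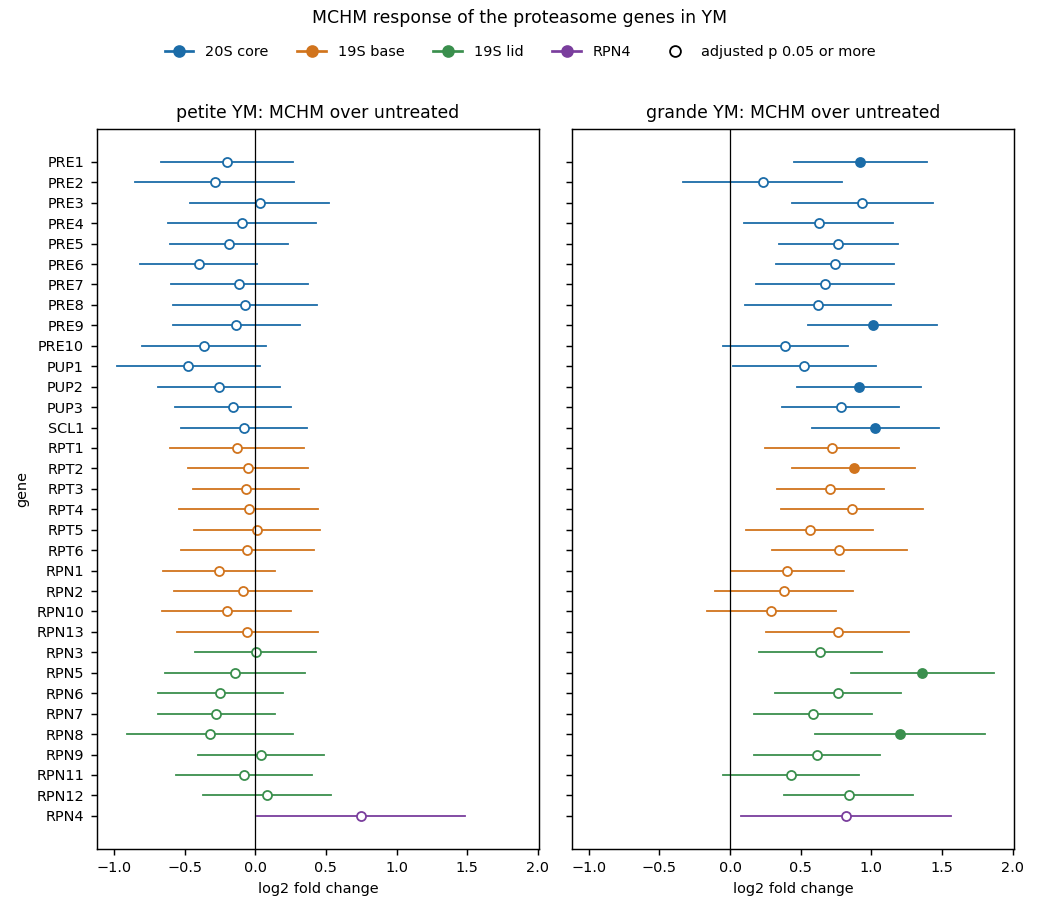
Log2 fold change with MCHM of each gene in YM, petite yeast left and grande yeast right. Points are the fitted values, and lines are approximate 95% intervals from the SE and the normal distribution. These are narrower than edgeR's quasi-likelihood test implies, so a line clear of 0 can have an unadjusted p above 0.05. RPN4 in petite yeast is such a case (0.013 to 1.49, unadjusted p = 0.0693 in that test). Filled points passed an adjusted p of 0.05, and colours give the block. In grande yeast all 32 subunit genes lie right of 0, and in petite yeast 27 of the 32 lie left of it, while RPN4 is at 0.75 and 0.82 in petite and grande yeast. The median over all genes tested was -0.070 in petite and 0.00 in grande yeast.

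The MCHM response of the subunit genes was therefore compared between strains and media with the difference of the 2 responses. In YM, the petite less the grande response was negative for 32 of 32 genes, with a median of -0.84 (range -1.53 to -0.46). In edgeR 0 passed the adjusted test (0.0171% of all genes) and 23 of the 32 had an unadjusted p under 0.05, against 5.41% of all genes at that p and lower. DESeq2 called 3 of the 32, all lower (1.02% of all genes). RPN8 (-1.53 ± 0.43, adjusted p = 0.267), RPN5 (-1.51 ± 0.36, adjusted p = 0.191) and PUP2 (-1.17 ± 0.31, adjusted p = 0.243) had the largest differences. In grande yeast, the YM less the YPD response was positive for 32 of 32, with a median of 0.57, 9 genes at an unadjusted p under 0.05 (3.74% of all genes, higher) and 0 after adjustment in edgeR (0.00% of all genes) or in DESeq2. The corresponding medians were -0.25 for YM less YPD in petite yeast and -0.050 for petite less grande in YPD, also with 0 genes after adjustment (0.461% and 0.00% of all genes) and with 1 and 0 genes at an unadjusted p under 0.05 (7.34% of all genes, lower, for the first). Without the untreated petite YPD library that stood apart, the medians were -0.22 for YM less YPD in petite yeast, -0.00035 for petite less grande in YPD, and 0.61 in place of 0.59 for the strain difference, YM less YPD, given further on. The 2 differences with medians of -0.84 and 0.57 share the grande YM libraries and are not independent of each other.

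Petite yeast were then compared with grande yeast. In untreated YM, all 32 subunit genes were higher in petite yeast, with a median log2 fold change of 0.50 (range 0.18 to 1.41). After adjustment 7 passed (7 higher, 0 lower), against 7.24% of all genes called higher, and 29 of the 32 did not overlap, against 30.1% of all genes. RPN5 had 200.0 and 156 CPM in petite yeast, against 74.1 and 60.0 CPM in grande yeast (1.41 ± 0.26, adjusted p = 0.00716). RPN8 had 170.2 and 115 CPM in petite yeast, against 70.2 and 41.2 CPM in grande yeast (1.35 ± 0.31, adjusted p = 0.0154). RPT2 had 213 and 157 CPM in petite yeast, against 105 and 85.1 CPM in grande yeast (0.96 ± 0.22, adjusted p = 0.0161). The other 4 were the lid genes RPN7 (0.96 ± 0.21) and RPN6 (0.85 ± 0.23), and the core genes PUP2 (0.73 ± 0.22) and PRE6 (0.72 ± 0.21), so that 4 of the 8 lid genes were among the 7. This comparison and the MCHM comparison in grande YM share the 2 untreated grande YM libraries, in which the subunit genes were lowest.

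The call count depended on single libraries and on scaling. DESeq2 called 11 (18.9% of all genes), and a fit on the 4 compared libraries alone called 0 with a median of 0.49. In edgeR the count was 0 without untreated grande YM replicate 2, with a median of 0.32, and 1 without untreated petite YM replicate 1. It was 4 without the other untreated library of either strain in YM, either MCHM library of grande YPD, or MCHM replicate 1 of petite YPD. With library size alone as the scaling, the median of all genes was 0.33 in place of 0.07, and the subunit median was 0.76 with 12 calls. All 5 MATa-specific genes were lower in petite yeast in this comparison, with a median log2 fold change of -1.91, and their part in the result was not tested.

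With MCHM in YM the direction was the other one. The median petite against grande was -0.32 (range -0.74 to 0.09), negative for 30 of 32, with 0 genes after adjustment in edgeR (4.73% of all genes called in either direction). Of the 32, 3 had an unadjusted p under 0.05 (11.9% of all genes, lower), 2 were called lower by DESeq2 (9.64% of all genes in either direction), and 17 did not overlap and were lower, against 28.3% of all genes. PRE5 (alpha6) had 129.5 and 118 CPM in petite yeast with MCHM, against 243 and 169 CPM in grande yeast with MCHM (-0.74 ± 0.21, adjusted p = 0.0706). PUP3 (beta3) had 132 and 142 CPM in petite yeast, against 256 and 178 CPM in grande yeast (-0.66 ± 0.21, adjusted p = 0.0927). With library size alone as the scaling this median was -0.018, with 16 of 32 genes above 0, so its direction rests on the scaling. Without MCHM replicate 1 of grande YM it was -0.048.

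In YPD the strains had close values. The median petite against grande was -0.11 with MCHM (range -0.42 to 0.28) and -0.091 untreated (-0.29 to 0.10). No member passed in edgeR or in DESeq2, and none had an unadjusted p under 0.05, against 1.57% of all genes called after adjustment with MCHM and 0.00% untreated. Without the untreated petite YPD library that stood apart the untreated median was -0.10. PRE2 had 199 and 184 CPM in untreated petite yeast, against 251 and 218 CPM in untreated grande yeast (-0.29 ± 0.29). The untreated values of PRE5 (142 and 156 CPM in petite yeast, against 197 and 165 CPM in grande yeast) gave -0.28 ± 0.21, and those of PRE1 (124 and 116 CPM in petite yeast, against 172 and 114 CPM in grande yeast) gave -0.25 ± 0.24. With MCHM, PRE1 had 120.2 and 145 CPM in petite yeast, against 179 and 176 CPM in grande yeast (-0.42 ± 0.24), and RPN8 and PRE5 were at -0.39 ± 0.30 and -0.33 ± 0.21. The petite libraries with MCHM lay below the grande ones for PRE1, RPN8 and PRE5, as they did for 1352 of all 5856 genes tested. The difference of the untreated strain comparisons, YM less YPD, was positive for 32 of 32 with a median of 0.59. It reached an unadjusted p under 0.05 for 10 genes, against 7.68% of all genes, and an adjusted one for 0 in edgeR (0.529% of all genes) and for 4 in DESeq2 (5.36%). The same difference with MCHM had a median of -0.19 and 0 genes at either p (0.0512% of all genes after adjustment) or in DESeq2.

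YM was compared with YPD within each strain. In untreated grande yeast, 31 of the 32 subunit genes were lower in YM, with a median log2 fold change of -0.48 (range -1.12 to 0.13). In edgeR's test 0 passed (0.854% of all genes called lower) and 16 had an unadjusted p under 0.05 (8.49% of all genes, lower). DESeq2 called 6 lower (7.96% of all genes in either direction). For 26 of the 32 the YM libraries lay wholly below the YPD libraries, against 22.3% of all genes. RPN8 had 70.2 and 41.2 CPM in YM, against 141 and 102 CPM in YPD (-1.12 ± 0.31, adjusted p = 0.0758), RPN5 had 74.1 and 60.0 CPM in YM, against 147 and 132 CPM in YPD (-1.06 ± 0.26, adjusted p = 0.0512), and RPT2 had 105 and 85.1 CPM in YM, against 172 and 169.9 CPM in YPD (-0.85 ± 0.22, adjusted p = 0.0636). PUP1 was the 1 subunit gene above 0, with 146 and 139 CPM in YM, against 114 and 147 CPM in YPD. With library size alone as the scaling, the median was -0.70.

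The other 3 medium comparisons had medians near 0, at -0.089 in petite yeast with MCHM, 0.12 in untreated petite yeast and 0.12 in grande yeast with MCHM. PUP1 passed in untreated petite yeast, with 181 and 226 CPM in YM, against 92.4 and 130.4 CPM in YPD (0.87 ± 0.26, adjusted p = 0.0360), where 10.5% of all genes were called higher. It was the only subunit gene called in these 3 comparisons, in which edgeR gave 0, 2 and 1 subunit genes at an unadjusted p under 0.05 (17.1% and 6.98% of all genes, higher, for the 2 and the 1) and DESeq2 called 0, 1 and 0. Without any 1 of the 4 libraries compared, the library that stood apart included, no subunit gene passed there, and without that library the median was 0.18. RPN7 had 177 and 147 CPM in YM in untreated petite yeast, against 108 and 118 CPM in YPD (0.52 ± 0.21, adjusted p = 0.109). In grande yeast with MCHM, PUP2 had 224 and 160.2 CPM in YM, against 128 and 147 CPM in YPD (0.48 ± 0.22), and PUP1 and PUP3 were at 0.43 ± 0.26 and 0.37 ± 0.21. In petite yeast with MCHM, PRE8 had 192 and 161 CPM in YM, against 275 and 231 CPM in YPD (-0.52 ± 0.26), and RPN2, the large partner of RPN1 in the base, had 332 and 255 CPM in YM, against 467 and 320.3 CPM in YPD (-0.42 ± 0.25). None of these 5 passed. Of all genes, 6.51% were called in either direction in petite yeast with MCHM and 0.427% in grande yeast with MCHM.

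**Figure D5:**
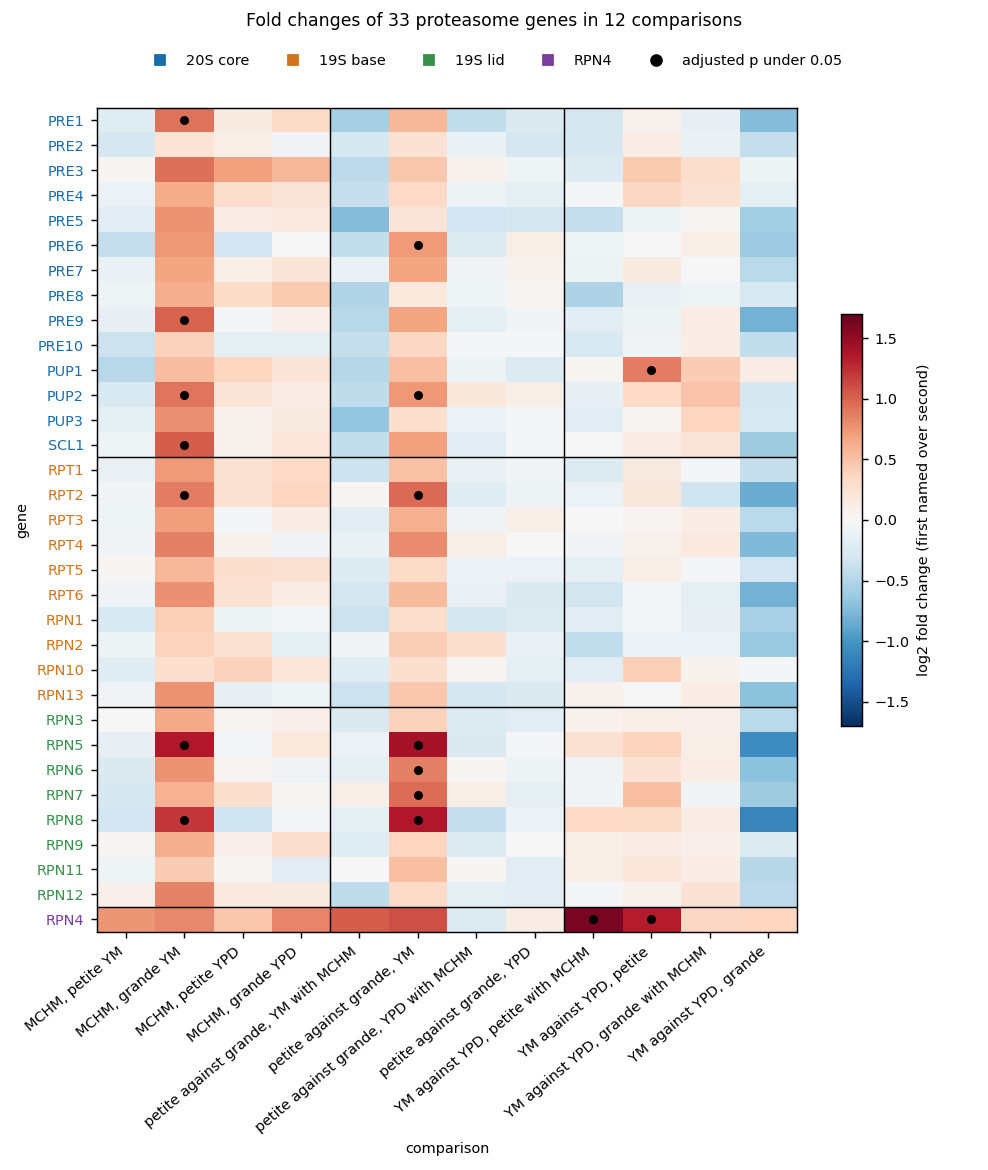
Log2 fold change of the 33 genes (down the page, label colour by block) in the 12 comparisons (MCHM against untreated, petite against grande, YM against YPD, left to right), red for higher and blue for lower in the first-named group; black dots mark an adjusted p under 0.05. The 7 dots of MCHM in grande YM and the 7 of petite against grande in YM hold most of the calls, and RPN4 in the last line has 2 dots, both for YM against YPD in petite yeast.

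RPN4 had its highest group mean in petite YM with MCHM, and the subunit median its highest in grande YM with MCHM. The latter rested on replicate 1, at 228 CPM. Replicate 2 was at 159.7 CPM, below both libraries of untreated petite YM (193 and 163 CPM) and of grande YPD with MCHM (173 and 187 CPM). RPN4 had 207 and 367 CPM in petite YM with MCHM and 148 and 193 CPM in petite YM untreated. It had 128 and 153 CPM in grande YM with MCHM and 80.7 and 78.5 CPM in grande YM untreated. In YPD it had 66.9 and 120.1 CPM in petite yeast with MCHM, 67.8 and 67.5 CPM in untreated petite yeast, 69.7 and 150.3 CPM in grande yeast with MCHM and 63.6 and 60.1 CPM in untreated grande yeast. Both libraries of petite YM with MCHM, where the subunit median was 165 and 153 CPM, lay above all other libraries for RPN4, and the 3 untreated groups other than petite YM lay between 60.1 and 80.7 CPM. By group mean the order was petite YM with MCHM (287 ± 114 CPM, SD, n = 2), petite YM (171 ± 31.9), grande YM with MCHM (141 ± 17.2), grande YPD with MCHM (110.0 ± 57.0), petite YPD with MCHM (93.5 ± 37.6), grande YM (79.6 ± 1.60), petite YPD (67.6 ± 0.220) and grande YPD (61.8 ± 2.44). Among neighbours in this order, petite YM with MCHM did not overlap petite YM, petite YPD lay wholly below grande YM and grande YPD wholly below petite YPD. The other 4 neighbouring pairs, from petite YM down to grande YM, overlapped.

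With MCHM the RPN4 level within a culture was 1.39 and 1.90 times the untreated level in petite YM, 1.59 and 1.95 times in grande YM, 0.987 and 1.78 times in petite YPD, and 1.10 and 2.50 times in grande YPD. The log2 fold change was 0.75 ± 0.38 in petite YM (adjusted p = 0.657), 0.82 ± 0.38 in grande YM (0.230), 0.47 ± 0.38 in petite YPD (0.462) and 0.83 ± 0.38 in grande YPD (0.307), and none passed in edgeR, in DESeq2 or with the culture as a block. In both YPD comparisons replicate 2 carried the difference. Without MCHM replicate 2 the value was -0.017 in petite YPD and 0.23 in grande YPD, and without the untreated library that stood apart it was 0.46 in petite YPD. The RPN4 response differed between strains by -0.07 ± 0.53 in YM, petite less grande. The approximate 95% interval, from the SE and the normal distribution, was -1.11 to 0.97. A difference of either sign is thus within the error.

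RPN4 rose in YM relative to YPD in petite yeast, by a log2 fold change of 1.62 ± 0.38 with MCHM (adjusted p = 0.0288) and 1.34 ± 0.38 untreated (adjusted p = 0.0304). In both comparisons the YM libraries lay above the YPD libraries, as for 1850 of all 5856 genes with MCHM and 1688 untreated. Without 1 of the 4 libraries compared, the untreated adjusted p was 0.0519 to 0.149, and without the untreated petite YPD library that stood apart it was 0.137 at a log2 fold change of 1.33. The call with MCHM was lost without MCHM replicate 2 of petite YM (1.14, adjusted p = 0.235) or MCHM replicate 1 of petite YPD (1.24, adjusted p = 0.251). In grande yeast the YM against YPD values were 0.35 ± 0.38 with MCHM and 0.36 ± 0.38 untreated, and neither passed. Petite against grande in YM, RPN4 was at 1.03 ± 0.38 with MCHM (adjusted p = 0.137) and 1.10 ± 0.38 untreated (adjusted p = 0.0736, and 0.0414 in DESeq2). In YPD the same comparison gave -0.23 ± 0.38 with MCHM and 0.13 ± 0.38 untreated, which was also 0.13 without the petite library that stood apart. The strain difference in RPN4, YM less YPD, was 1.27 ± 0.53 with MCHM and 0.97 ± 0.54 untreated, and neither passed the adjusted test (0.581 and 0.415), and the untreated value was 0.97 also without that library.

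Genes that act upstream of RPN4 and beside the proteasome were read as lists. Of the 4 activators of RPN4, PDR3, which encodes a drug-resistance regulator, rose with MCHM in petite YM (2.13 ± 0.36, adjusted p = 0.0205), grande YM (2.43 ± 0.37, adjusted p = 0.00368) and grande YPD (1.92 ± 0.36, adjusted p = 0.0201), and was at 1.11 ± 0.35 in petite YPD (adjusted p = 0.0609). In petite YPD it had 318 and 336 CPM with MCHM, against 92.4 and 210.4 CPM untreated, the higher untreated value being of the library that stood apart, and without that library PDR3 was at 1.82 ± 0.36 (adjusted p = 0.0219). PDR1, YAP1 and HSF1 passed in no MCHM comparison. For HSF1 both MCHM libraries lay above both untreated ones in each of them, with 70.4 and 73.5 CPM against 40.1 and 42.3 CPM in grande YPD. In grande YM the same held for PDR1 and YAP1 (26.5% of all genes), and in petite YM both were lower with MCHM. Of all 5856 genes, 1549 in grande YM, 1568 in petite YPD and 1283 in grande YPD lay wholly higher with MCHM. Petite YM had fewer such genes. How many genes did so in all 4 comparisons, as HSF1 did, was not counted. PDR1, YAP1 and HSF1 were higher in petite than in grande yeast in untreated YM, at 1.11 ± 0.21, 1.09 ± 0.21 and 0.92 ± 0.19 (adjusted p = 0.00802, 0.00898 and 0.0120). Of all genes, 7.24% were called higher in that comparison. The libraries of PDR3 overlapped there, with 66.6 and 103.8 CPM in petite yeast, against 76.1 and 59.7 CPM in grande yeast. Of 8 targets of Pdr1 and Pdr3, 6 were called higher with MCHM in petite YM (0.256% of all genes) and 6 in grande YM (3.06%). In petite YPD 5 were called higher (4.8%), and in grande YPD 6 (1.88%). Their medians in that order were 2.64, 2.62, 1.67 and 2.60. In petite YPD without the library that stood apart, their median was 1.94. The transporter genes PDR5, PDR15 and SNQ2 had the largest changes in petite YM (4.22, 3.80 and 2.75), in grande YM (4.08, 3.90 and 3.62) and in grande YPD (3.50, 2.99 and 3.38). In petite YPD these were YOR1 (2.64), SNQ2 (2.37) and PDR15 (2.05), and PDR5 did not pass there (1.29 ± 0.44, adjusted p = 0.0749, and 2.15 ± 0.47, adjusted p = 0.0338, without that library).

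Of 16 proteasome assembly and accessory genes, 4 were called higher with MCHM in grande YM (3.06% of all genes) and 2 in petite YPD (4.8%). In petite YM and in grande YPD 0 were called higher. In grande YM these were SEM1 (a small lid protein, 1.50 ± 0.34), HUL5 (a ubiquitin ligase of the proteasome, 1.11 ± 0.23), ADD66 (a core assembly chaperone, 1.06 ± 0.27) and, the smallest of the 4, ECM29 (a proteasome-binding scaffold, 0.88 ± 0.21), with adjusted p between 0.0179 and 0.0439. In petite YPD they were HUL5 (1.10 ± 0.23) and SPG5 (1.09 ± 0.30). Of 25 genes of the ubiquitin system, 1 was called higher in petite YPD, against 4.8% of all genes, and 0 passed in the other 3. It was UBC5, a ubiquitin-conjugating enzyme gene (1.94 ± 0.45). The targets of Hsf1 and of Yap1 had 1 call each of 10 and of 8 genes, HSP82 (2.25 ± 0.44) and TRX2 (1.17 ± 0.34), both in petite YPD, where 4.8% of all genes were called higher. Without the untreated petite YPD library that stood apart, HUL5, SPG5, UBC5, HSP82 and TRX2 no longer passed in petite YPD, with adjusted p between 0.0689 and 0.264. The list medians in grande YM were 0.63 for assembly genes, 0.26 for the ubiquitin system, 0.44 for Hsf1 targets and 0.36 for Yap1 targets, beside 0.73 for the subunits.

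The element was set beside the responses as a description. In grande YM, the 27 subunit genes with the full PACE had a median log2 fold change with MCHM of 0.72, and the 5 without it had 0.76. In petite against grande in untreated YM these medians were 0.51 and 0.45, and in YM against YPD in untreated grande yeast -0.46 and -0.58. Of the 5, PRE5, PUP1 and RPN8 had the shorter form. Only RPN10 and RPN13 had neither, at 0.29 and 0.76 with MCHM in grande YM, where the 5 ranged from 0.29 to 1.21. Whether genes without the element respond alike cannot be told from so few. Of the 45 other genes with a full PACE in the window, 43 were tested. With MCHM their median was -0.0098 in petite YM, 0.26 in grande YM, 0.20 in petite YPD and 0.29 in grande YPD. Of the 43, 0 were called higher in petite YM (0.256% of all genes), 5 in grande YM (3.06%), 3 in petite YPD (4.8%) and 1 in grande YPD (1.88%), and 4 were called lower in petite YPD (6.81%) and 1 in grande YPD (0.478%). Of the genes of these lists, ECM29, UBA1, UBI4, CDC48, CUZ1 and YAP1 had the element.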

How the data were processed

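Sequencing libraries were unstranded, paired-end TruSeq libraries run on a MiSeq. Gene counts were made by the authors in Rsubread, and the deposited table holds these raw counts without normalization. The submitters' processing notes list CASAVA 1.7, TopHat2 2.0.12, DESeq2 1.8.1 and the R64 (sacCer3) build, and counting options are not given in the sources used here. The authors' table of fold changes and p-values from their own comparisons was not used.

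All 16 columns were assigned to groups by name. Counts were fitted in edgeR 4.0.16 (R 4.3.3) with TMM factors, filterByExpr (minimum count 10, minimum total 15) and a mean for each of the 8 groups. Quasi-likelihood tests gave 12 comparisons and 6 differences of comparisons, with Benjamini-Hochberg adjustment over all 5856 genes tested within each. A call was an adjusted p under 0.05. The common biological coefficient of variation was 29.5%. CPM are counts scaled by TMM to a fixed library size, and SE is the log2 fold change divided by the root of F. With 2 libraries per group, p-values measure the spread between these cultures. Replicates were not duplicates (chi-square per degree of freedom 24.3 to 64.3). The members and lists were chosen with earlier results of these data known. Values per library were given for RPN4, PRE3, PUP1, PRE2 and members among the 3 largest changes in each comparison, and genes of other lists for the 3 largest called. ECM29 and, in petite YPD, PDR5 were named beyond this rule, after their values were seen.

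By the labels each culture was split into an MCHM and an untreated part, and column names give its number. Deviations of the same culture correlated across genes at 0.34 in petite YM, 0.33 in grande YM, 0.48 in petite YPD and 0.52 in grande YPD, so the culture number was used as a block in an alternative. Other alternatives were library size alone, DESeq2 1.42.0, no filter, the compared libraries alone, the lower and higher culture series as a block, a 2-fold bound, gene length for levels, and leaving out each library. The tests were tested on simulated counts. Elements were read from RefSeq's R64 genome, and 692 table identifiers had no annotated position there. Python 3.11.15 with pandas 2.3.3, numpy 2.4.6 and matplotlib 3.10.9 was used.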

Additional observations from a re-analysis of the deposited data

How the results depend on the processing

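Subunit calls for MCHM in grande YM were 3 with library size alone, 18 with DESeq2, 0 with the 4 libraries alone, 12 with the culture as a replicate block, 17 with the culture series as a block, 4 with a 2-fold bound, and 0 to 8 with 1 library left out (median 0.43 to 0.92). For petite against grande in YM they were 12 with library size alone (median 0.76), 11 with DESeq2, 0 with the 4 libraries alone, 11 with the series block, 2 with a 2-fold bound, and 0 to 6 with 1 left out (median 0.32 to 0.58). For MCHM in petite YPD they were 1 with DESeq2 and 1 with either block, and 0 to 1 with 1 left out. For petite against grande in YM with MCHM, DESeq2 gave 2 and the series block 1, and the median was -0.018 with library size alone and -0.52 to -0.048 with 1 left out. For YM against YPD in untreated grande yeast, DESeq2 gave 6, the series block 5, 1 library left out 0 to 1, and library size alone a median of -0.70. In untreated petite yeast, library size alone, the 4 libraries alone and the 2-fold bound each gave 0, and 1 left out 0 to 1. In grande yeast with MCHM, the median was -0.16 to 0.28 with 1 left out. For MCHM in grande YM, 10.4% of all genes were called with DESeq2 and 9.15% with the culture block. Where no share of all genes is given for a setting, the count shows only how the subunit calls moved. It does not show whether subunit genes were called more often than other genes.

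RPN4 changed sign with 1 library left out for MCHM in petite YPD (-0.017 to 0.91), petite against grande in YPD with MCHM (-0.72 to 0.44), and YM against YPD in grande yeast with MCHM (-0.084 to 0.97). The differences of its MCHM responses did so too: petite less grande in YPD (-0.85 to 0.33) and YM (-0.55 to 0.28), and YM less YPD in grande (-0.50 to 0.55) and petite yeast (-0.19 to 0.76). Petite less grande in YM was also 0.041 with library size alone and 0.041 with no filter, and YM less YPD in grande yeast was 0.13 with library size alone, 0.071 with the culture block and 0.039 with the series block. The subunit median of the strain difference with MCHM, YM less YPD, was -0.44 to 0.0036 with 1 left out. Libraries of the same series correlated in their deviations at 0.026 to 0.74 across the 12 comparisons (0.71 for YM against YPD in untreated grande yeast), but the labels give the series no meaning. With the series as a block RPN4 passed for petite against grande in YM untreated (adjusted p = 0.0187) and with MCHM (0.0395). RPN4 no longer passed for YM against YPD in petite yeast with library size alone (untreated, adjusted p = 0.0627) and with the 4 libraries alone (with MCHM, 0.0643). The median strain difference of the subunits, YM less YPD untreated, was 0.82 with library size alone. Beyond these, the culture block moved no count of calls in the MCHM comparisons, and DESeq2 called 3 and 4 subunit genes in the differences given above. The causes were not tested. With 2 libraries a group, a fit that leaves one out assumes that the lone library varies like the others.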
